A study of Mus musculus with 24 samples.

Results

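The sinusoidal endothelial marker genes are 10 genes that mark the cells lining the liver sinusoids, namely Stab1, Stab2, Lyve1, Clec4g, Kdr, Cdh5, Pecam1, Oit3, Mrc1 and Fcgr2b. They were chosen by symbol: every probe set (a group of short DNA probes on the array that together report 1 transcript) paired by the platform annotation with a single gene of that symbol was taken. This gave 17 probe sets of 10 genes, out of 34945 single-gene probe sets of 18193 genes on the array. Each gene had at least 1 probe set, and all 10 symbols were unchanged in RefSeq.

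The livers came from male BALB/c mice, 6 weeks old, that were fed the purified AIN-93G diet for 14 days. The diet held no phloridzin (control), or 0.1%, 0.5% or 1.0% phloridzin, with 6 mice planned for each of the 4 diets and 3 mice to a cage. Phloridzin is a glucoside of apple that blocks sodium-glucose cotransporters. No mouse carried a genetic change or a second agent, and the labels do not say which animals shared a cage. Transcripts of the whole liver were measured on 24 single-colour Affymetrix arrays, 6 for each diet by title.

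Liver sinusoids are lined by a thin, perforated endothelium with no continuous basement membrane. These cells clear macromolecules from portal blood through scavenger, lectin and Fc receptors, and they respond to vascular endothelial growth factor released by hepatocytes. They are a minority of liver cells beside hepatocytes, so their transcripts form a small part of whole-liver RNA. Mrc1 and Fcgr2b are also known from macrophages, and Cdh5, Pecam1 and Kdr from blood vessel endothelium in general.

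The 24 arrays did not behave as 24 separate livers, which bears on every value below. Over 1463 bright genes, 13 of the 276 pairs of arrays had a standard deviation (SD) of their log2 difference between 0.0436 and 0.0577, whereas the closest of the other pairs reached 0.108. Pairs this close were taken as repeat hybridisations of 1 RNA, and array sets with a similar fingerprint of variable genes were joined too. By this rule the 24 arrays held 12 RNA samples, and 11 of them entered the comparisons: 4 from the control diet, 3 at 0.1%, 2 at 0.5% and 2 at 1.0%. One further RNA, shared by 0.1% replicates 1, 3 and 6 and by 1.0% replicate 1, carried the labels of 2 diets and entered none of them; its values are given apart. In the text, values of single samples are ordered as control replicates 1 and 3 (1 RNA), 2 and 4 (1 RNA), 5 and 6, then 0.1% replicates 2, 4 and 5, then 0.5% replicates 1, 2, 3 and 6 (1 RNA) and 4 and 5 (1 RNA), then 1.0% replicates 2, 3, 5 and 6 (1 RNA) and 4.

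All levels are log2 of quantile-normalized intensity with a floor of 8, which is 3.00 on this scale, so levels may be compared between samples for 1 probe set but not between genes. Of the 17 probe sets, 15 lay above the lowest 40% of the array and were kept. The 2 left out were a second probe set of Cdh5, with a mean of 3.29, and 1 of the 5 of Fcgr2b, which was at the floor on all 24 arrays. The signal of the probe sets used for the 10 genes averaged between 4.25 (Pecam1) and 9.18 (Clec4g) over the 24 arrays. The probe sets used for 9 of the 10 genes stayed above the floor on every array, whereas that of Pecam1 was at the floor on 4 arrays. Hepatocyte genes such as Alb, with a mean log2 signal of 13.51, were present as well.

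None of the 10 genes passed the test in any comparison with the control diet. The test was limma across 13110 genes, called at a Benjamini-Hochberg adjusted p under 0.05. The smallest adjusted p among the members was 0.477 at 0.1%, 0.923 at 0.5% and 0.761 at 1.0%. Few genes passed at all: 0.0229% of all genes tested at 0.1%, 0.00763% at 0.5% and 0.0153% at 1.0%. Before adjustment, p was under 0.05 for 3 members at 0.1% (Stab2, Mrc1 and Pecam1), where 8.48% of all genes had such a p, and for Stab2 alone at 0.5% (5.22% of genes) and at 1.0% (6.48% of genes). A difference in a whole-liver array can reflect fewer cells of a type or less RNA per cell, and these cannot be told apart here. When all 24 titles were entered as separate samples instead, so that repeat hybridisations counted as replicates, the fit called 4 members at 0.1% and 1 each at 0.5% and 1.0%, while 20.1%, 3.42% and 3.07% of all genes were called.

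**Figure D1:**
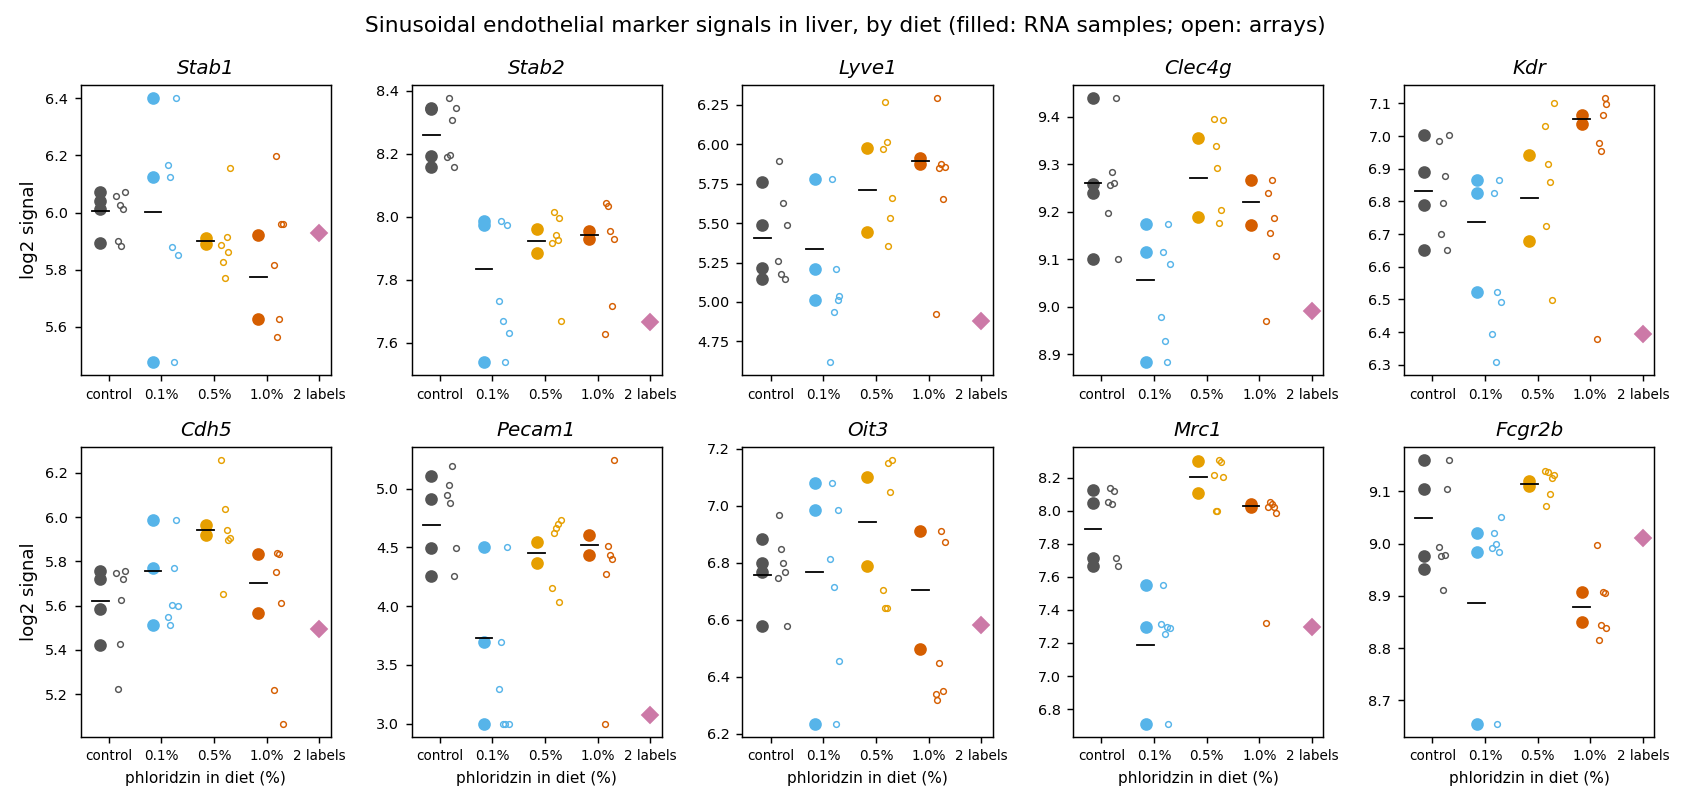
Log2 signal of the 10 genes (1 panel each, brightest probe set) against diet, control first and then rising phloridzin content; filled circles are RNA samples, bars their diet means, open circles single arrays by title, and the diamond the RNA carrying the labels of 2 diets. Stab2 lies below all control samples at each dose, and Mrc1 lies below them at 0.1% but among or above them at 0.5%.

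Stab2 encodes stabilin-2, the scavenger receptor through which sinusoidal endothelium takes up hyaluronan. Its level was 8.19, 8.34, 8.16 and 8.34 in the control diet, 7.99, 7.54 and 7.97 at 0.1%, 7.89 and 7.96 at 0.5%, and 7.93 and 7.96 at 1.0%. All 7 phloridzin samples lay below all 4 control samples, an order found in 0.427% of all genes tested. The RNA with labels of 2 diets, at 7.67, also lay below every control, and requiring this too left 0.328% of genes. Array by array, the 0.1% titles had a lowest, median and highest value of 7.54, 7.70 and 7.99, the 0.5% titles 7.67, 7.93 and 8.02, and the 1.0% titles 7.63, 7.94 and 8.04, against 8.16, 8.25 and 8.38 for the 6 control titles. On this normalized scale no phloridzin array reached the lowest control array. With no scaling between arrays the order did not hold: the highest phloridzin sample was at 8.38 and the lowest control at 8.31. The arrays hold the same RNA samples, so their ranges add no further livers.

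The log2 change of Stab2 against control was -0.43 ± 0.13 (SE) at 0.1%, with a 95% interval from -0.70 to -0.15 and an adjusted p of 0.487. At 0.5% it was -0.34 ± 0.15 (-0.65 to -0.02), with an adjusted p of 0.923. At 1.0% it was -0.32 ± 0.15 (-0.63 to -0.003), with an adjusted p of 0.761. The 3 intervals overlap widely, and the fitted slope on phloridzin content was -0.21 ± 0.17 per 1% of diet, with an adjusted p of 0.726. Taken as the mean of the 3 phloridzin diets minus control, a comparison added after the data were seen, the change was -0.36 ± 0.11 (-0.59 to -0.13), with an adjusted p of 0.758. Without 0.1% replicate 4, which had the lowest value, the change at 0.1% was -0.28. With all 24 titles entered as samples the adjusted p for Stab2 was 0.0023 at 0.1%, 0.0275 at 0.5% and 0.0248 at 1.0%. That fit counts repeat hybridisations as replicates and enters 1 RNA under both 0.1% and 1.0%, so these p-values overstate the evidence. It called 20.1%, 3.42% and 3.07% of all genes at the 3 doses.

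Mrc1 encodes the mannose receptor, an endocytic lectin of sinusoidal endothelium and of macrophages. Its level was 8.05, 8.13, 7.71 and 7.67 in the control diet, 7.55, 7.30 and 6.71 at 0.1%, 8.11 and 8.30 at 0.5%, and 8.02 and 8.04 at 1.0%. All 3 samples at 0.1% lay below every control, those at 1.0% lay inside the control range, and at 0.5% 1 sample lay inside it and 1 above it. The RNA with labels of 2 diets had 7.30, also below every control. By title, the 6 arrays at 0.1% had a lowest, median and highest value of 6.71, 7.29 and 7.55, against 7.67, 8.05 and 8.14 for the 6 control arrays.

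The log2 change of Mrc1 was -0.70 ± 0.18 at 0.1%, with a 95% interval from -1.10 to -0.31 and an adjusted p of 0.477, the smallest of the members in that comparison. At 0.5% it was 0.31 ± 0.21 and at 1.0% 0.14 ± 0.21, with adjusted p of 0.982 and 0.920. The comparisons between doses were not planned at the start. In these, Mrc1 at 0.5% was 1.02 ± 0.22 above its level at 0.1%, with an adjusted p of 0.204. At 1.0% it was 0.84 ± 0.22 above 0.1%, with an adjusted p of 0.217. Over the 4 diets together the F-test gave Mrc1 an adjusted p of 0.366, where 0.0153% of genes passed and 9.26% had an unadjusted p under 0.05, among them Mrc1 and Stab2 of the members. The change at 0.1% was -0.46 without 0.1% replicate 5 and -0.88 without 0.1% replicate 2, the extremes when each RNA sample was left out in turn. The difference between RNA samples of 1 diet far exceeded array noise: the SD between repeat arrays of 1 RNA was 0.0198 and that between RNA samples of 1 diet was 0.281.

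The promoters of these genes are shown for reference, since Stab2 and Mrc1 are the members with the lowest p-values at 0.1%. Promoters of 6 members were found in RefSeq (GRCm38.p6, a C57BL/6J genome, whereas these mice were BALB/c). Below are the 250 bases before the annotated start, 5′ to 3′ on the strand of the gene, for Stab2 at chr10:87007943-87008192 (minus strand) and Mrc1 at chr2:14229164-14229413 (plus strand). Capitals mark CAGGAA or its reverse complement TTCCTG, a form of the sites bound by the ETS factors that endothelial genes are known for. Other forms of ETS site were not searched for or marked.
Stab2: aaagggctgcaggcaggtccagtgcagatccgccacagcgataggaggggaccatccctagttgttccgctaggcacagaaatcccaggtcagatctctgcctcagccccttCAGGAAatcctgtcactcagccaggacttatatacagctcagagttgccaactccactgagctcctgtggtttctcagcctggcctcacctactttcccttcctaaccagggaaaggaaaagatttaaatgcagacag
Mrc1: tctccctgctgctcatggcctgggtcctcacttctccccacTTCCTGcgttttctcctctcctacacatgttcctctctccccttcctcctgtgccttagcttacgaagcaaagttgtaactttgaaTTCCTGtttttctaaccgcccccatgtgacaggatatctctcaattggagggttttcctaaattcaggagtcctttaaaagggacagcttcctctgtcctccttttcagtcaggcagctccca
The Stab2 match begins at base -138 from the start, and the Mrc1 matches, on the opposite strand, at -209 and -123. On either strand the motif was present in 4 of the 6 member promoters (Stab1, Stab2, Clec4g and Mrc1), and in 25.7% of 32851 promoters of the same length. The GATA-type motif AGATAA, reverse complement TTATCT, was present in 0 of the 6 and in 9.99% of the same promoters. These matches describe the letters in this window only.

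Fcgr2b encodes the inhibitory Fc receptor that removes small immune complexes in sinusoidal endothelium. Its brightest probe set gave 8.95, 8.98, 9.11 and 9.16 in the control diet, 9.02, 8.66 and 8.98 at 0.1%, 9.12 and 9.11 at 0.5%, and 8.85 and 8.91 at 1.0%. This probe set carries the suffix that Affymetrix gives to sets whose probes can match several transcripts. The samples at 1.0% lay just below all controls, and those of the other 2 phloridzin diets overlapped them. The log2 change was -0.16 ± 0.11 at 0.1%, 0.07 ± 0.13 at 0.5% and -0.17 ± 0.13 at 1.0%, with adjusted p between 0.696 and 0.992.

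Stab1 encodes stabilin-1, the other stabilin receptor. Its level was 6.04, 5.89, 6.01 and 6.07 in the control diet, 6.13, 5.48 and 6.40 at 0.1%, 5.91 and 5.89 at 0.5%, and 5.92 and 5.63 at 1.0%. Unlike its relative Stab2, it overlapped the controls at each dose, and at 0.1% its samples lay on both sides of them. The log2 change was -0.003 ± 0.20 at 0.1%, -0.10 ± 0.23 at 0.5% and -0.23 ± 0.23 at 1.0%. The 95% interval at 1.0% ran from -0.73 to 0.26. Whether Stab1 and Stab2 differ in their response was not tested.

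Lyve1 encodes a hyaluronan receptor of lymphatic and sinusoidal endothelium. It gave 5.22, 5.76, 5.15 and 5.49 in the control diet, 5.78, 5.21 and 5.01 at 0.1%, 5.98 and 5.45 at 0.5%, and 5.91 and 5.88 at 1.0%. The samples at 1.0% were above all controls, and the RNA with labels of 2 diets, at 4.88, was below them all. The change at 1.0% was 0.49 ± 0.26, with an adjusted p of 0.772. Its slope was 0.55 ± 0.23 per 1% of diet (0.06 to 1.04), with an adjusted p of 0.525. Lyve1 was the only member with an unadjusted p under 0.05 for the slope, which 8.83% of all genes had, and 0 genes passed after adjustment. The slope rests on 1 probe set: that of the other Lyve1 probe set was 0.02 ± 0.26, and with the mean of a gene's probe sets 0 members had such a p.

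Clec4g encodes a C-type lectin found on sinusoidal and lymph node endothelium. Its level was 9.24, 9.26, 9.44 and 9.10 in the control diet, 9.11, 8.88 and 9.17 at 0.1%, 9.35 and 9.19 at 0.5%, and 9.17 and 9.27 at 1.0%. The groups overlapped at each dose. The change at 0.1% was -0.20 ± 0.11, with an adjusted p of 0.627, and it was 0.01 ± 0.13 and -0.04 ± 0.13 at the higher doses.

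Kdr encodes the main signalling receptor for vascular endothelial growth factor. It gave 6.89, 6.79, 6.65 and 7.003 in the control diet, 6.83, 6.52 and 6.87 at 0.1%, 6.94 and 6.68 at 0.5%, and 7.04 and 7.07 at 1.0%. The 2 samples at 1.0% lay just above the highest control, by a margin smaller than the spread of the controls. The change at 1.0% was 0.22 ± 0.17, with an adjusted p of 0.833. The RNA with labels of 2 diets was lower than all others, at 6.39.

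Cdh5 encodes VE-cadherin and Pecam1 encodes CD31, both of endothelial cell junctions. Cdh5 gave 5.59, 5.42, 5.72 and 5.76 in the control diet, 5.51, 5.77 and 5.99 at 0.1%, 5.96 and 5.92 at 0.5%, and 5.57 and 5.83 at 1.0%. At 0.5% both samples were above all controls, with a change of 0.32 ± 0.20 and an adjusted p of 0.982. For this probe set the SD between repeat arrays, 0.229, was larger than that between RNA samples of 1 diet, 0.177.

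Pecam1 lay close to the floor, with 4.91, 5.11, 4.26 and 4.49 in the control diet, 3.69, 3.00 and 4.50 at 0.1%, 4.55 and 4.37 at 0.5%, and 4.61 and 4.44 at 1.0%. Its RNA with labels of 2 diets had 3.07. The value of 0.1% replicate 4 was the floor itself, and 4 of the 24 arrays were at the floor. Its change at 0.1% was -0.96 ± 0.32, with an adjusted p of 0.496; without replicate 4 it was -0.60, and without replicate 5 it was -1.35. The size depends on the floor: the change was -0.53 with a floor of 16 and -0.03 with a floor of 32, whereas a higher floor moved no other member's change at 0.1%. At the higher doses the change was -0.24 ± 0.37 and -0.17 ± 0.37.

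Oit3 encodes a zona pellucida domain protein known from liver. Its level was 6.80, 6.88, 6.77 and 6.58 in the control diet, 7.08, 6.24 and 6.99 at 0.1%, 6.79 and 7.10 at 0.5%, and 6.50 and 6.91 at 1.0%. It overlapped the controls at each dose, with changes of 0.01 ± 0.20, 0.19 ± 0.23 and -0.05 ± 0.23.

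**Figure D2:**
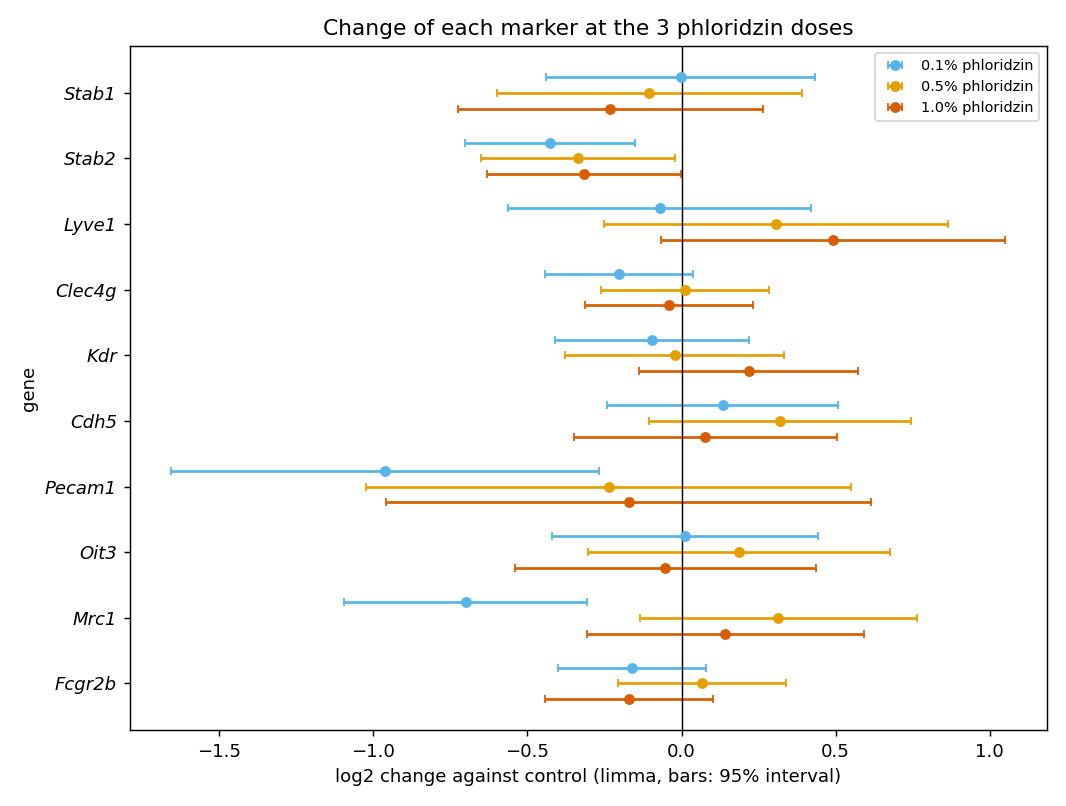
Log2 change of each of the 10 genes against the control diet at 0.1%, 0.5% and 1.0% phloridzin, with 95% intervals from limma. Stab2 is below 0 at all 3 doses, while Mrc1 is at -0.70 at 0.1% and above 0 at the other doses; no gene passed after adjustment over 13110 genes.

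As a group, the members were lower than control on balance at 0.1% and mixed at the higher doses. At 0.1%, 8 of the 10 had a log2 change below 0, where 49.4% of all genes did, and their median was -0.13, against 0.00 for all genes. At 0.5%, 4 of the 10 were below 0 (48.8% of all genes), with a median of 0.04, and at 1.0% 6 of the 10 were (54% of all genes), with a median of -0.05. The last median was 0.08 without the RNA of 1.0% replicates 2, 3, 5 and 6, and that at 0.5% was -0.01 without the RNA of 0.5% replicates 1, 2, 3 and 6. Samples were all below the controls for 2 members at 0.1% (Stab2 and Mrc1, where 3.75% of genes did this), 1 at 0.5% (Stab2, 8.69%) and 2 at 1.0% (Stab2 and Fcgr2b, 12.4%). They were all above for 0 members at 0.1% (4.13% of genes), 1 at 0.5% (Cdh5, 9.17%) and 2 at 1.0% (Lyve1 and Kdr, 8.24%). The 3 comparisons share the control samples. The choice of scaling moved these signs: with arrays centred on their own median, 9, 6 and 9 of the members were below 0 at the 3 doses, while the median of all genes moved to -0.08, -0.09 and -0.20. Relative to that, 9, 6 and 6 members lay below the median of all genes. Only Stab1, Stab2 and Pecam1 were below 0 at all 3 doses, as were 19.2% of all genes, and Stab1 at 0.1% by 0.003 only.

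Averaged over the 3 phloridzin diets, 6 members were below control, where 52.6% of all genes were. Stab2 alone had an unadjusted p under 0.05 (5.25% of genes), and 0 of all genes passed after adjustment. No member had all its phloridzin samples above every control, which 0.389% of genes did.

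Between doses, 9 of the 10 members were higher at 0.5% than at 0.1%, the exception being Stab1, where 50.2% of all genes were lower. This count leans on 0.1% replicate 4, the lowest sample at 0.1% for all members but Lyve1, Cdh5 and Mrc1. Replicates 2 and 5 at 0.1% lay above both samples at 0.5% for Stab1 and Stab2. They lay below both for Clec4g, Mrc1 and Fcgr2b, and the other members were mixed. The count without replicate 4 was not taken. Samples at 0.5% were all above those at 0.1% for 3 members (Clec4g, Mrc1 and Fcgr2b, 12.3% of genes) and all below for 0 (11.8% of genes), and Mrc1 alone had an unadjusted p under 0.05 (10.7% of genes), where 0 of all genes passed after adjustment. At 1.0% against 0.1%, 4 members were lower (53.2% of genes), samples were all higher for 3 (Lyve1, Kdr and Mrc1, 10.9% of genes) and all lower for 0 (14.7%), and Mrc1 alone had an unadjusted p under 0.05 (12.2%), where 0.0153% of genes passed. At 1.0% against 0.5%, 6 members were lower (54.6% of genes), samples were all lower for 3 (Cdh5, Mrc1 and Fcgr2b, 20.8%) and all higher for Kdr (15.1%), and 0 members had an unadjusted p under 0.05 (4.21%). After adjustment 0 of all genes passed in that comparison.

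Taken over the 10 genes, the low values at 0.1% were strongest in 1 of the 3 samples. Stab2 and Mrc1, however, lay below every control in all 3, and Mrc1 was lowest in replicate 5. The mean of the 10 genes, minus its control mean, was -0.11 for 0.1% replicate 2, -0.52 for replicate 4 and -0.12 for replicate 5. The 4 control samples ran from -0.08 to 0.08. The means of replicates 2 and 5 each lean on 1 gene. In replicate 2 this was Pecam1, close to the floor, at -1.0013, and the other genes ran from -0.3359 to 0.3729. In replicate 5 it was Mrc1, at -1.1762, and the other genes ran from -0.3919 to 0.3965. Replicate 4 had 8 of the 10 genes below every control, where 28.1% of all genes were in that sample, and 1 above every control (24% of all genes). Replicate 2 had 3 below (18.8% of all genes) and 3 above (20.1%), and replicate 5 had 3 below (26.4%) and 3 above (36%). Without replicate 4 the median change of the members at 0.1% was -0.03. The RNA with labels of 2 diets had a mean of -0.45, with all 10 genes below their control mean and 6 below every control, where 28% of all genes were; 0 were above, where 34% of all genes were. At 0.5% the 2 samples had means of 0.08 and 0.02, and at 1.0% they had -0.03 and 0.01.

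**Figure D3:**
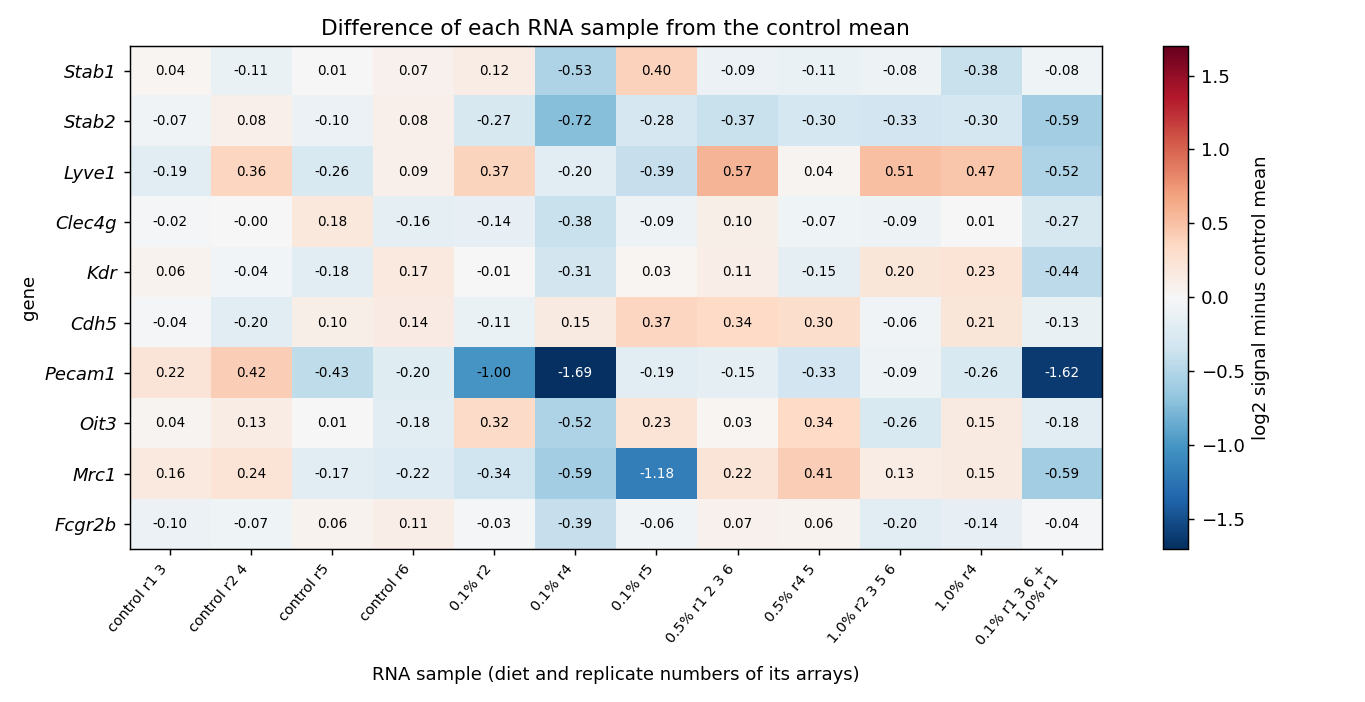
Deviation of each of the 10 genes (rows) from its control mean, in log2 units, in each of the 12 RNA samples (columns, ordered by diet). Most genes are low in 0.1% replicate 4 and in the RNA carrying the labels of 2 diets, whereas Stab2 is low in each phloridzin sample.

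RNA quality values differed between samples. On the array's actin control probe sets, the 3′ minus 5′ log2 signal was 2.32 in 0.1% replicate 4, against 1.31 to 1.54 in the controls, and for Gapdh it was -0.05, against -0.37 to -0.28. In the RNA with labels of 2 diets the actin value was 1.51 and the Gapdh value -0.28, both inside the control range. Other samples lay outside it by less: the Gapdh value was -0.18 in both samples at 0.5% and -0.27 and -0.26 in 0.1% replicates 2 and 5, and the actin value was 1.78 in 0.5% replicates 4 and 5 (1 RNA) and 1.21 in 1.0% replicates 2, 3, 5 and 6 (1 RNA). The part of RNA quality in the members' values was not tested.

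Agreement between probe sets could be examined for 3 genes with more than 1 probe set above the filter. For Fcgr2b all 4 probe sets were below control at 0.1%, with changes from -0.26 to -0.16, and all 4 were below it at 1.0%, from -0.49 to -0.04. The 4 probe sets read the same samples, so their agreement is not independent, and all were at their lowest in 0.1% replicate 4. At 0.5% they split, with 3 above control and 1 below, from -0.29 to 0.16, and the 1 below had 7.73 and 7.72 at 0.5%, against 7.98, 7.90, 8.08 and 8.12 in the control diet. For Lyve1 and Clec4g the 2 probe sets had opposite signs at 0.1% and at 0.5%. In both cases the second probe set was dim, with a mean of 4.34 for Lyve1 and 3.49 for Clec4g, and the Clec4g one was at the floor on 9 arrays.

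**Figure D4:**
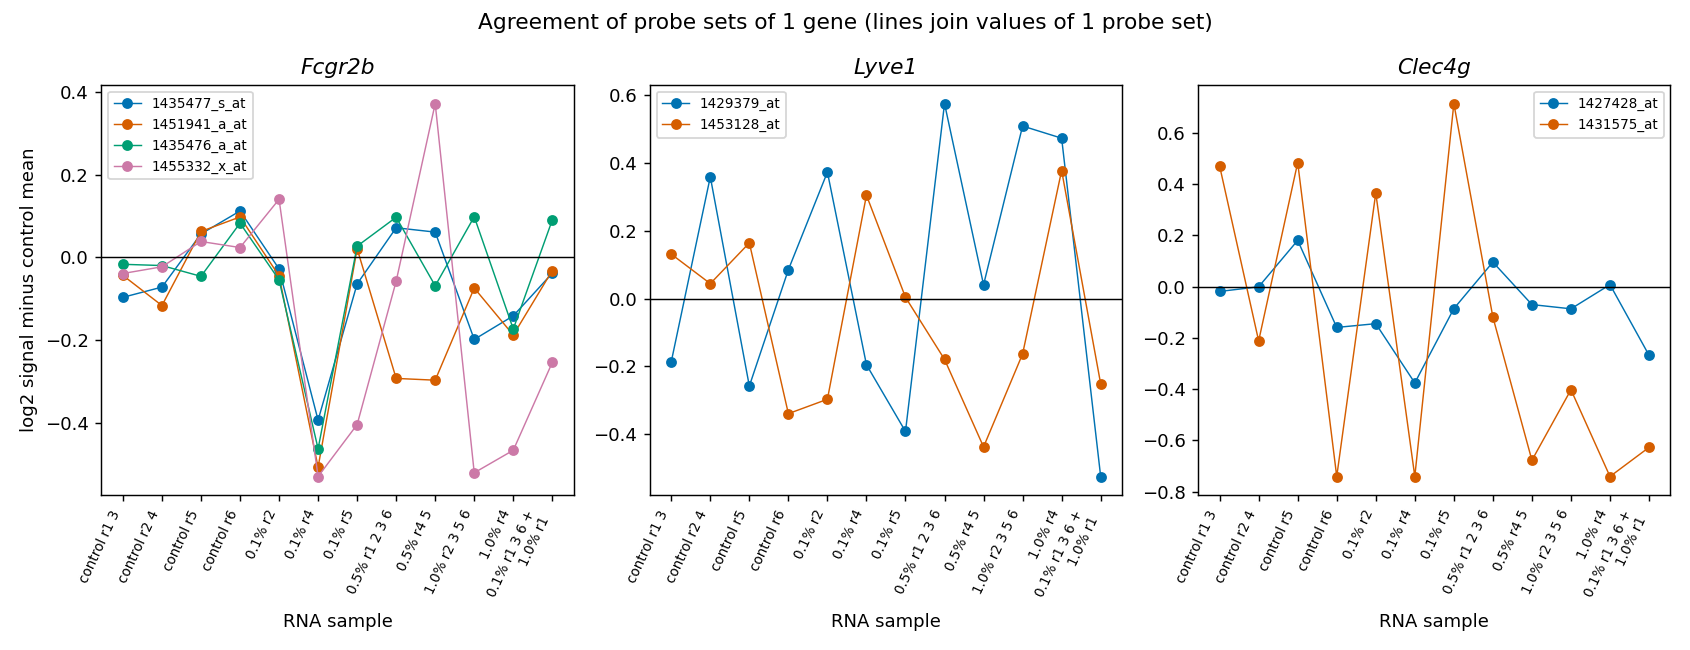
Log2 signal minus its control mean (vertical axis) in each of the 12 RNA samples (horizontal axis) for each probe set of Fcgr2b (4), Lyve1 (2) and Clec4g (2) that passed the filter; lines join the values of 1 probe set. All 4 Fcgr2b probe sets are at their lowest in 0.1% replicate 4, whereas the 2 probe sets of Lyve1 and of Clec4g often lie on opposite sides of 0.

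The spread between RNA samples, relative to that between repeat arrays, differed widely between members. This ratio is not the precision of a change: the SE at 0.1% was 0.18 for Mrc1 and 0.17 for Cdh5. The SD between RNA samples of 1 diet exceeded that between repeat arrays by 14.2 times for Mrc1, 3.86 times for Fcgr2b and 2.59 times for Clec4g. It was between 1.34 and 1.83 times as large for Stab1, Stab2, Lyve1, Kdr, Pecam1 and Oit3. For Cdh5 it was 0.77 times as large.

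Other endothelial genes were also lowest in 0.1% replicate 4, and the lists differed in the RNA with labels of 2 diets. The mean of 10 further sinusoidal endothelial genes relative to control was -0.28 in replicate 4 and -0.06 in that RNA, against -0.08 and -0.11 in 0.1% replicates 2 and 5. Of 11 further sinusoidal endothelial genes, 10 were tested and 8 were below control at 0.1%, with a median of -0.11, and 0 passed in any comparison. Maf, a transcription factor of this endothelium, had log2 changes of -0.48 ± 0.20 at 0.1%, 0.30 ± 0.23 at 0.5% and 0.33 ± 0.23 at 1.0%, with an adjusted F-test p of 0.467. Cd300lg, an endothelial mucin-like receptor, had log2 changes of -0.71 ± 0.30, -0.44 ± 0.34 and -0.82 ± 0.34, and Ctsl, the lysosomal protease cathepsin L, by -0.09 ± 0.09, 0.15 ± 0.10 and 0.05 ± 0.10. Of 30 general endothelial genes, 29 were tested, 23 were below control at 0.1% with a median of -0.18, and 0 passed. Ptprb, a phosphatase that acts on VE-cadherin and Tie2, was at -0.52 ± 0.18, 0.16 ± 0.20 and 0.16 ± 0.20, the adhesion receptor gene Adgrf5 at -0.48 ± 0.13, -0.03 ± 0.15 and -0.22 ± 0.15, and Cyyr1 at -0.58 ± 0.26, 0.17 ± 0.30 and 0.48 ± 0.30. The mean of these 29 genes was -0.33 relative to control in 0.1% replicate 4 and -0.03 in each of replicates 2 and 5. It was -0.19 in the RNA with labels of 2 diets, against -0.06 to 0.05 in the controls.

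The genes through which this endothelium signals to hepatocytes, and the growth factor pathways that act on it, did not pass either. Of 12 such signals 10 were tested, with 8 below control at 0.1% and a median of -0.07. Hgf, a mitogen of hepatocytes, had log2 changes of -0.27 ± 0.28 at 0.1%, -0.61 ± 0.32 at 0.5% and 0.45 ± 0.32 at 1.0%, Bmp2, which drives hepcidin expression, by 0.33 ± 0.17, 0.01 ± 0.19 and -0.10 ± 0.19, and the Notch ligand gene Jag1 by -0.19 ± 0.19, 0.25 ± 0.21 and -0.19 ± 0.21. Of 22 genes of the VEGF, angiopoietin and Notch pathways 18 were tested, with 11 below control at 0.1%, 9 at 0.5% and 11 at 1.0%. The growth factor gene Vegfc was at 0.14 ± 0.16, 0.20 ± 0.18 and -0.34 ± 0.18, the VEGF co-receptor gene Nrp1 at 0.25 ± 0.23, 0.68 ± 0.26 and 0.53 ± 0.26, and the Notch target Hes1 at 0.13 ± 0.29, -0.64 ± 0.32 and 0.39 ± 0.32. The adjusted F-test p of these 6 genes lay between 0.561 and 0.698.

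Markers of Kupffer cells, the resident macrophages that share Mrc1 and Fcgr2b with the endothelium, were low in 0.1% replicate 4 and in the RNA with labels of 2 diets, where their mean was -0.23. Of 14 markers, 13 were tested and Marco was left out by the filter; 10 were below control at 0.1% with a median of -0.18, and 0 passed. Cd163, the haemoglobin scavenger receptor of macrophages, had log2 changes of -0.81 ± 0.17 at 0.1%, -0.01 ± 0.19 at 0.5% and -0.16 ± 0.19 at 1.0%. Vsig4, a complement receptor of Kupffer cells, had log2 changes of -0.43 ± 0.12, 0.12 ± 0.14 and -0.15 ± 0.14, and Csf1r, the receptor for macrophage colony-stimulating factor, by -0.20 ± 0.10, -0.0015 ± 0.12 and -0.28 ± 0.12. Their adjusted F-test p was 0.366, 0.416 and 0.578. The mean of the 13 markers relative to control ran from -0.41 to -0.02 at 0.1%, 0.03 to 0.07 at 0.5% and -0.09 to -0.07 at 1.0%, against -0.04 to 0.11 in the controls, and it was lowest in 0.1% replicate 4, where 11 of the 13 lay below every control (28.1% of all genes did in that sample). The part of macrophage transcripts in the values of Mrc1 and Fcgr2b was not tested.

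**Figure D5:**
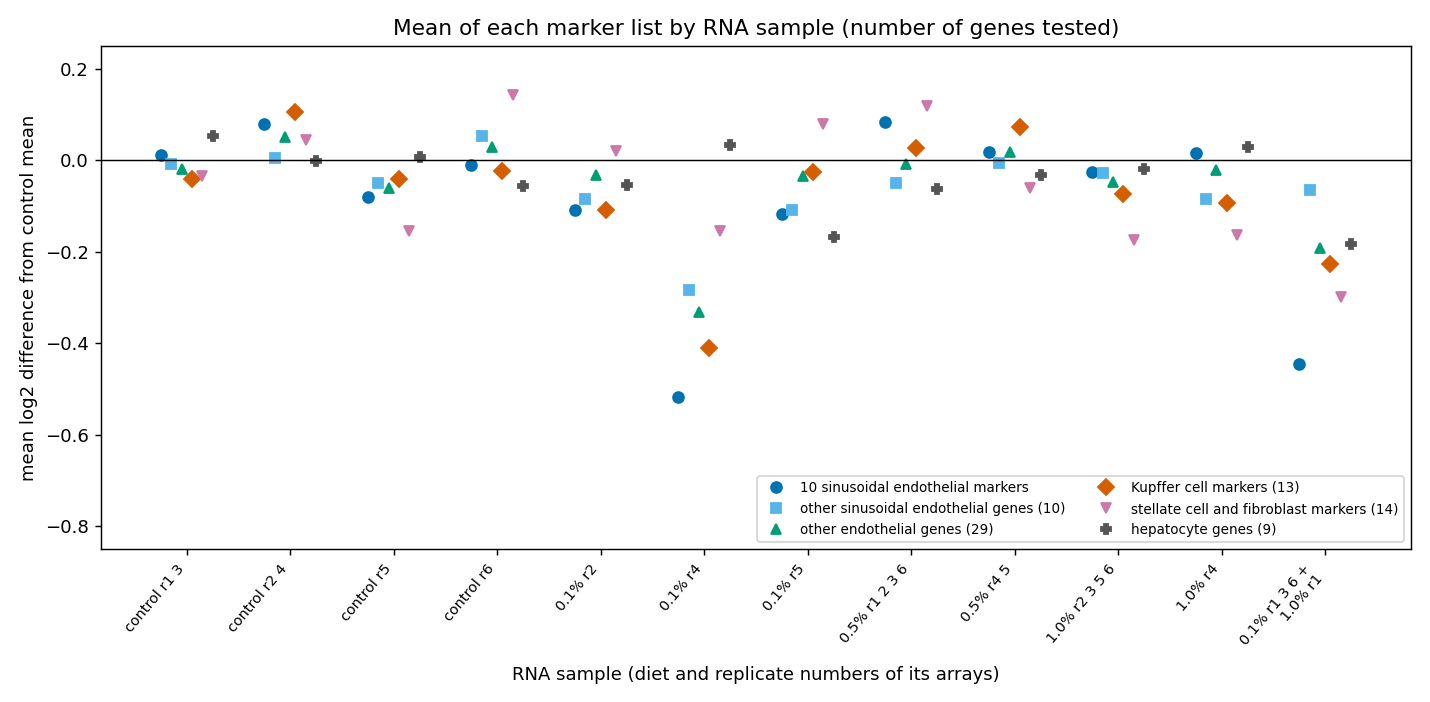
Mean log2 difference from the control mean (vertical axis) in each RNA sample (horizontal axis) for the 10 sinusoidal endothelial markers and 5 other marker lists, with the number of genes in the legend. The 10 markers and the sinusoidal, endothelial and Kupffer cell lists are lowest in 0.1% replicate 4.

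The remaining cell types showed no call. Stellate cell and fibroblast markers (14 of 14 tested) had 8 below control at 0.1%, Colec11, Col1a1 and Hand2 having the lowest F-test p, with adjusted values of 0.389, 0.439 and 0.484. Leukocyte markers (7 of 16 tested) had 4 below control at 0.1%, led by S100a8, Ptprc and S100a9 with adjusted p of 0.596, 0.673 and 0.698. Erythroid and platelet markers (6 of 8 tested) had 2 below control at 0.1%, led by Alas2, Ppbp and Pf4, with adjusted p of 0.366, 0.677 and 0.737. Cholangiocyte markers (3 of 7 tested) had 0 below control at 0.1%, and Sox9, Krt19 and Epcam had adjusted p of 0.484, 0.729 and 0.732. Hepatocyte genes (9 of 10 tested) had 4 below control at 0.1%, led by Tat, Hnf4a and Fgb with adjusted p of 0.389, 0.561 and 0.613, and their mean ran from -0.17 to 0.03 at 0.1%, against -0.06 to 0.05 in the controls. In the RNA with labels of 2 diets the hepatocyte mean was -0.18, its lowest value. The stellate and fibroblast mean was also lowest there, at -0.30, against -0.15 to 0.14 in the controls. The leukocyte, erythroid and platelet, and cholangiocyte means in that RNA were 0.35, 0.34 and 0.15.

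The genes whose profile was most like that of the members were found by root-mean-square distance in log2 units between centred profiles over the 12 RNA samples. Of 10504 genes that varied at least as much as the members' mean profile, the nearest was Ifnar2, a subunit of the type I interferon receptor, at 0.0649. Ncoa4, a ferritin receptor, Prelid3b, Lap3, Map7, Frk, Tsg101 and C9orf72 followed, at up to 0.113, where the median gene was at 0.375. As the choice by profile implies, these 8 genes were below control at 0.1%, with changes from -0.33 to -0.19. Among the members themselves, the distance to their own mean profile was smallest for Clec4g, at 0.116, and largest for Pecam1, at 0.470.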

How the data were processed

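Liver RNA of mice on 4 diets was measured on 24 arrays. The authors deposited a linear intensity per probe set and array. How probes were summarised, corrected for background and scaled is not given in the sources used here; array medians ran from 9.49 to 18.0, so the absolute scale is unknown. Probe sets were named from the platform annotation. From the deposited intensities, quantile-normalized values floored at 8 were put on the log2 scale. Repeat arrays were pairs with an SD under 0.08 over genes above 9 (mean log2). Sets were joined where the mean absolute difference over the 200 most variable genes above 7 was under 1.2 times that of the rest (ratios 0.938 and 1.18, the next 1.42). These rules were taken from an earlier analysis of the same data. With the SD in place of the mean absolute difference, an alternative added after the data were seen, the ratios were 0.943, 1.32 and 1.46. Only the lowest of these is under 1.2, so the number of RNA samples depends on this choice. Arrays of 1 RNA were averaged. The lowest 40% of probe sets were left out, and the brightest probe set stood for a gene, which gave 13110 genes.

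limma 3.58.1 under R 4.3.3 (lmFit, eBayes with trend) fitted the 4 diets together without covariates, leaving 7 residual degrees of freedom. Two-sided p-values were adjusted over all genes (Benjamini-Hochberg). The slope used the percent of phloridzin. The comparisons between doses and that of the mean of the phloridzin diets were outside the plan. Changes are on the floored log2 scale, which understates those of dim genes. The model was run on simulated data with independent noise and planted changes, without a floor, repeat hybridisations or RNA quality differences. The planted changes were larger than any member's change against control, so that run does not bear on changes of their size. The number of RNA samples limits the precision, and p-values reflect only the spread of these samples, which may not all be separate animals.

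The members and gene lists were chosen with earlier results of these data known. All 10 members were named; of each other list, the 3 genes with the lowest F-test p; and the 8 genes of most like profile. Alternatives covered scaling, floor, filter, probe set choice, the joining of arrays, the replicate block and leaving out each sample. Scan dates and detection calls were not used here, and neither batches nor signal above background were tested.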

Additional observations from a re-analysis of the deposited data

How the results depend on the processing

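The members were refitted under 27 alternatives, 11 of which left out a sample, and 54 of the 807 changes against control took the other sign. Calls of members changed only where arrays were counted differently. With all 24 arrays as samples the fit called 4 members at 0.1% (Stab2, Mrc1, Pecam1 and Clec4g), 1 at 0.5% and 1 at 1.0% (Stab2 in both), 6 in the F-test, 4 between 0.5% and 0.1%, 3 between 1.0% and 0.1%, 1 between 1.0% and 0.5%, and 1 in the mean of the 3 phloridzin diets against control; of all genes 20.1%, 3.42%, 3.07%, 35.9%, 30.3%, 16.1%, 7.42% and 2.79% were called in these fits. The member counts were the same with the replicate block (4, 1, 1, 6, 4, 3, 1 and 1). Such fits count repeat hybridisations of 1 RNA as separate samples. The replicate numbers did not pair the arrays, since 6 of 36 same-number pairs had a correlation over 0.1 and an array correlated best with its own number in 10 of 72 checks. Without joining by fingerprint, 1 member was called between 0.5% and 0.1% (0.336% of all genes) and 1 between 1.0% and 0.1% (1.17%). The count of all genes called was 3, 1 and 2 at the 3 doses and ran from 0 to 2726, 0 to 448 and 0 to 403 over the alternatives, highest with all 24 arrays.

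The members' median at 0.1%, 0.5% and 1.0% was -0.24, -0.13 and -0.24 with arrays centred on their median, and -0.32, -0.23 and -0.40 with no scaling. It was -0.031 at 0.5% with arrays centred on the 75th percentile, -0.11 at 1.0% with the mean of a gene's probe sets, and -0.13 at 1.0% with the RNA of 2 labels entered under both. With all 24 arrays it was -0.25 at 0.1% and -0.12 at 1.0%, with or without the replicate block. Leaving out a sample gave -0.230 to -0.0278 at 0.1%, -0.0149 to 0.0833 at 0.5% and -0.102 to 0.0799 at 1.0%; the last turned positive without the RNA of 1.0% replicates 2, 3, 5 and 6. Stab2 was below control in every phloridzin sample, and Mrc1 in every sample at 0.1%, under 13 of 14 settings, the exception being no scaling. Floor, filter, probe set choice and trend could not alter this order in genes with 1 probe set far above each floor. Stab2 values moved only with the scaling and without joining by fingerprint. Its highest phloridzin and lowest control values were 8.01 and 8.28 with median centring and 8.02 and 8.21 with the 75th percentile. They were 8.04 and 8.16 without joining, and 8.38 and 8.31 with no scaling. The causes of these shifts were not tested beyond the way each alternative is built.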
